A study of Homo sapiens with 8 samples.

Results

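The transcripts of 10 genes of epithelial cell junctions and epithelial splicing were followed in HCT116 cells with and without a knockout of FBXW7. They were picked by symbol and comprise the adhesion genes CDH1 and EPCAM, the claudin genes CLDN3, CLDN4 and CLDN7, the tight junction genes OCLN and TJP1, the splicing regulator genes ESRP1 and ESRP2, and CDX2, which encodes an intestinal transcription factor. They are 10 of the 55075 genes in the count tables, and 10 of 10 were among the 17471 genes with enough reads to be tested. They were chosen with earlier results of these data known, so shares and medians set beside those of all genes are descriptive.

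HCT116 is a human colon cancer line, and FBXW7 picks the substrates of an SCF-type ubiquitin ligase. The 4 groups, with 2 libraries each, were FBXW7 knockout (KO) cells heated at 42 °C for 1 h and returned to 37 °C for 2 h (KO recovery), KO cells at the end of the heating (KO heat shock), wild-type (WT) cells after the same recovery (WT recovery) and WT cells at the end of the heating (WT heat shock). All 4 groups had thus been heated, and unheated cells were not analysed here. The sources used here do not say whether the KO line is 1 clone or whether replicates were separate cultures, and p-values therefore speak for the spread among these libraries alone. The count columns carry no condition in their names, and the recovery column was taken as the one named first in each comparison. With the other reading every recovery change below would change sign, and the values given for recovery and for heat shock would change places.

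Total counts per library were 15507896 to 34387618, and levels are given as CPM, the reads of a gene scaled to library size by the TMM method. FBXW7 itself was read at 13.9 ± 0.164 CPM in KO recovery against 22.3 ± 0.892 CPM in WT recovery (SD, n = 2), and at 16.2 ± 1.74 CPM in KO heat shock against 32.5 ± 1.47 CPM in WT heat shock, log2 differences of -0.68 ± 0.11 (edgeR, adjusted p = 8.0e-05) and -1.01 ± 0.10 (adjusted p = 1.9e-06). Counts per gene do not show which exons remain in the KO line. Epithelial markers (EPCAM, CDH1, KRT8, KRT18 and KRT19) summed to 1901 to 2838 CPM per library. A list of 12 mesenchymal markers summed to 35.4 to 48.2 CPM, with ZEB2 at 0 in every library, and blood and endothelial markers summed to 17.0 to 30.9 CPM with CD3E at 0. Of 8 intestinal markers, CDX1, CDH17, LGALS4 and GPA33 stayed under 0.5 CPM in every library, while CDX2 and VIL1 were above it in every library. In bulk RNA, fewer cells of a type and less RNA per cell cannot be told apart.

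Epithelial cells are held together by adherens junctions, built on E-cadherin, and sealed by tight junctions, whose strands are made of claudins and occludin and are tied to the actin cytoskeleton by ZO scaffold proteins such as TJP1. EPCAM is a surface adhesion protein of epithelia that binds claudin-7. ESRP1 and ESRP2 are RNA-binding proteins that switch many transcripts to their epithelial splice forms, and their loss accompanies the epithelial-mesenchymal transition, in which repressors of the SNAI and ZEB families bind E-box letters in the promoters of epithelial genes.

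Between the lines, 7 of the 10 genes were lower in KO than in WT at recovery, namely CDH1, EPCAM, CLDN3, CLDN4, CLDN7, OCLN and ESRP1, and 1, CDX2, was higher. The threshold was an adjusted p of 0.05 in edgeR's quasi-likelihood test, adjusted by Benjamini-Hochberg over all genes tested. Of all genes 31.3% were lower and 31.8% were higher in this comparison, 63.1% in all. The KO and WT libraries did not overlap for 8 of the 10 genes and for 83.5% of all genes. The median log2 difference of the 10 genes was -0.57, against -0.01 over all genes. Upper-quartile scaling moved the median of all genes by itself to -0.18 in this comparison, and the share of calls that were higher to 38.1%, against 50.4% with TMM. At heat shock 6 of the 10 were lower in KO, namely CDH1, CLDN3, CLDN4, CLDN7, ESRP1 and ESRP2, and 0 were higher, where 28.2% of all genes were lower and 27.4% higher (55.6% in all). There 7 of the 10 genes and 76.1% of all genes had no overlap of KO and WT libraries. The median was -0.32 for the 10 genes and -0.03 for all genes. TJP1 passed in neither comparison.

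Within the lines, recovery was compared with heat shock in the pairs that the study's design calls matched; libraries of a pair did not deviate together (r of -0.0259 in KO and -0.0144 in WT). In KO cells CLDN4 rose, OCLN and ESRP1 fell, and the other 7 genes did not pass. Of all genes 20.6% rose and 21.1% fell, 41.8% in all, so the 3 of 10 genes that passed were no larger a share than among all genes. Recovery and heat shock libraries did not overlap for 7 of the 10 and for 74.1% of all genes. Without the replicate block CDH1 and EPCAM fell as well, 5 genes in all. With offsets for GC content and length 5 also passed, with CLDN4 higher and CDH1, EPCAM, CLDN7 and ESRP1 lower. Without any 1 of the 4 KO libraries, 2838 to 4654 of all genes passed in place of 7295, and 2 of the 10. For recovery, a fit without 1 library rests on 1 pair of that line, since the block takes up the partner left alone. Fits without either library of a pair thus give nearly the same change. Calls lost in them, here and below, may reflect fewer libraries. In WT cells CDH1, EPCAM, CLDN3, CLDN4, OCLN and ESRP1 rose and ESRP2 and CDX2 fell, where 24.8% of all genes rose and 26.0% fell (50.8% in all). All 10 genes were without overlap in WT cells, as were 75.4% of all genes. Upper-quartile scaling raised the share of calls that were higher to 59.0%, against 48.8%. With GC and length offsets 6 of the 10 rose, with CLDN7 in place of OCLN, and 0 fell. The difference of the responses, KO minus WT, passed for 6 of the 10 genes: it was below 0 for CDH1, EPCAM, OCLN and ESRP1 and above 0 for ESRP2 and CDX2. Of all genes 27.8% had a difference below 0 and 28.5% one above 0, 56.3% in all. OCLN and ESRP1 passed in both lines with opposite signs, a pattern of 21.9% of all genes, and CLDN4 passed in both with the same sign, a pattern of 3.74% of all genes.

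**Figure D1:**
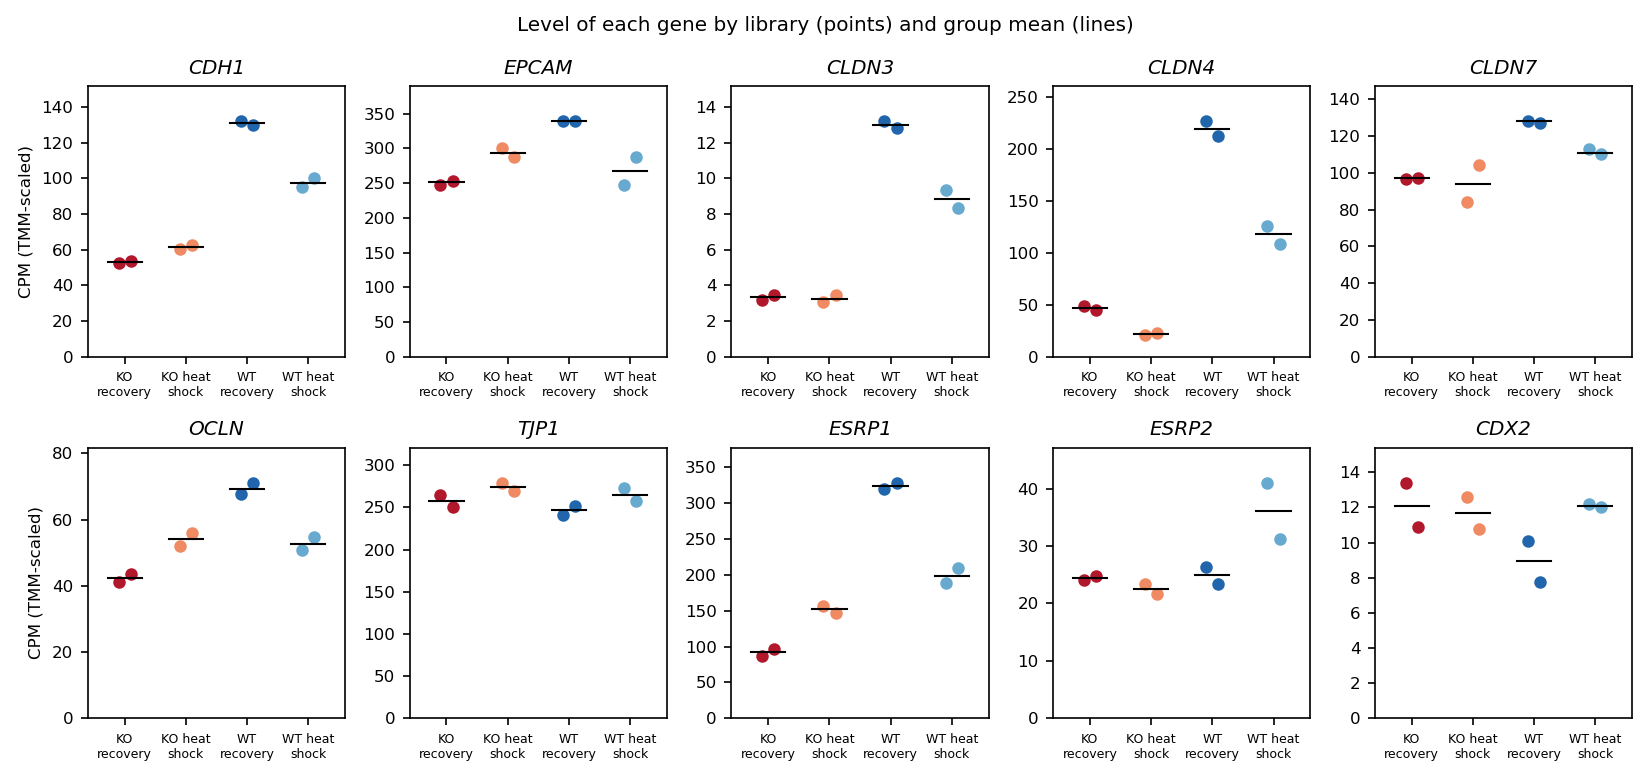
Level of each of the 10 genes (CPM, TMM-scaled, linear axes from 0) in the 8 libraries. Points are libraries and lines are the means of 2 libraries, in the order KO recovery, KO heat shock, WT recovery and WT heat shock. Every KO library lies below every WT library for CDH1, CLDN3, CLDN4, CLDN7 and ESRP1, and TJP1 lay between 241 and 279 CPM throughout.

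Many of these values moved when each library was corrected for the GC content and length of its genes. Transcripts of the 10 genes range in GC content from 39.9% in OCLN to 69.2% in CLDN3. Their lengths range from 1274 bases in CLDN3 to 7950 bases in TJP1, while the correction used the length of all exons of a gene. Where the correction ended or reversed a call on the 10 genes, its value stands beside the result. The labels name both poly-A selection and ribosomal RNA depletion without saying which library had which, and the part of this in the differences was not tested.

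Of the adhesion genes, CDH1 encodes E-cadherin, the calcium-dependent cadherin of adherens junctions (ENSG00000039068, chromosome 16, 68737225 to 68835548 on the plus strand of GRCh38, as annotated in GENCODE 29, while the submitters' processing notes name hg19). It was read at 52.6 and 53.7 CPM in KO recovery, 60.5 and 62.9 CPM in KO heat shock, 132 and 130 CPM in WT recovery and 95.1 and 100 CPM in WT heat shock. The 4 groups did not overlap, and the lines lay further apart at recovery. CDH1 was lower in KO than in WT by a log2 difference of -1.30 ± 0.08 at recovery (2.46-fold, adjusted p = 6.9e-09) and -0.66 ± 0.08 at heat shock (adjusted p = 7.0e-06); values after ± beside a log2 value are standard errors. In the pairs it changed by -0.22 ± 0.09 in KO cells, which did not pass (adjusted p = 0.0657, and 0.0382 without the replicate block), and rose by 0.43 ± 0.09 in WT cells (adjusted p = 6.4e-04). The KO response minus the WT response was -0.64 ± 0.13 (adjusted p = 3.1e-04) and -0.67 with GC and length offsets. In the authors' deposited table, whose header calls them normalized, the log2 values of CDH1 were -0.37 and -0.31 in the KO pairs and 0.61 and 0.52 in the WT pairs. An antisense gene that overlaps CDH1, AC099314.1, was counted at 109 to 198 reads per library, against 1179 to 2213 for CDH1.

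EPCAM, the epithelial adhesion molecule (ENSG00000119888, chromosome 2, 47345158 to 47387601, plus strand), had the highest level per kilobase of transcript of the 10 genes in every group, with group means of 145 to 197 CPM per kilobase. Unscaled for length it was read at 248 and 253 CPM in KO recovery, 300 and 288 CPM in KO heat shock, 339 and 339 CPM in WT recovery and 247 and 287 CPM in WT heat shock. WT recovery was highest, and the WT heat shock libraries spread around those of KO recovery. At recovery EPCAM was lower in KO by -0.44 ± 0.09 (adjusted p = 5.3e-04), while at heat shock the log2 difference was 0.14 ± 0.09 (adjusted p = 0.19), and it was 0.24 without WT heat shock replicate 2 (adjusted p = 0.012). EPCAM rose by 0.35 ± 0.10 in WT cells (adjusted p = 0.00638), a call lost when replicate 1 of WT recovery or of WT heat shock was left out (0.21 each, with adjusted p of 0.163 and 0.178 in that order). In KO cells it changed by -0.23 ± 0.10 (adjusted p = 0.0684), which passed without the replicate block (adjusted p = 0.0449) and with GC and length offsets (-0.30, adjusted p = 0.00668). The responses differed by -0.58 ± 0.14 (adjusted p = 0.00162).

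The claudins are the strand-forming proteins of tight junctions, and CLDN4 showed the widest gap between the lines among the 10 genes. CLDN3 (ENSG00000165215, 73768997 to 73770270, minus strand) and CLDN4 (ENSG00000189143, 73799542 to 73832693, plus strand) are neighbours on chromosome 7, and CLDN7 (ENSG00000181885, 7259903 to 7263983, minus strand) lies on chromosome 17. A stretch of 250 bases before a RefSeq transcript start is printed for each claudin gene. The claudin genes were all lower in KO cells at recovery, as was OCLN, whose stretches are not printed. CDH1, EPCAM, ESRP1 and ESRP2 were not matched to a promoter entry. Sequences are from RefSeq (GRCh38.p14), 5′ to 3′ on the gene's strand, at chr7:73770271-73770520 (minus) for CLDN3, chr7:73830746-73830995 (plus) for CLDN4 and chr17:7262479-7262728 (minus) for CLDN7, and capitals mark the E-box CAGGTG or its reverse complement CACCTG.
CLDN3: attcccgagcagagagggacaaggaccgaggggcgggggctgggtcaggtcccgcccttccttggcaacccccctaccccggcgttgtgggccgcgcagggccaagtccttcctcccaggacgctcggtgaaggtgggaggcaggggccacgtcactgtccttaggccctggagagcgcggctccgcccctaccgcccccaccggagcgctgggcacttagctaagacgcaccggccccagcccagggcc
CLDN4: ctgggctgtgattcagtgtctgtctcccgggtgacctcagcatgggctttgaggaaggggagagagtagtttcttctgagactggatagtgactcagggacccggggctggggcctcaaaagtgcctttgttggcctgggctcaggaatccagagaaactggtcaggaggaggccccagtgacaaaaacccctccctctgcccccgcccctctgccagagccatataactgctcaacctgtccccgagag
CLDN7: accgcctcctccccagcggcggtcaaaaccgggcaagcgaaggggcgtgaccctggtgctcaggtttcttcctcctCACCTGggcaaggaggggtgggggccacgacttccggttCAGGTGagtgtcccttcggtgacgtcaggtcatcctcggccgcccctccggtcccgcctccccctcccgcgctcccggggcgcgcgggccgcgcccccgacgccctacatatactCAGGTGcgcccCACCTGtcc
CLDN7 held 4 matches in this stretch, at 174, 135, 20 and 9 bases before the start, and 1 more starting at base 6 after it. The other RefSeq window of CLDN7, at chr17:7263164-7263463 (minus), held 0. CLDN3 held 0 before its start and 1 at base 37 after it, and CLDN4 held 0 in its window. Over windows reaching from 250 bases before to 50 bases after a start, 20.6% of 35116 RefSeq windows held CAGGTG on either strand. The 6 genes with a window (OCLN, CLDN3, CLDN4, CDX2, TJP1 and CLDN7) have 11 windows. OCLN held 1 and 2 matches in its windows, TJP1 held 1 match in 1 of its 4, and CDX2 held 0. None of the 11 held CACGTG, the E-box of MYC, which was in 7.26% of all windows on either strand. A match is a description of letters. Longer transcripts of CLDN4 and CLDN7 in GENCODE start further upstream.

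CLDN4, which seals the paracellular path to cations in many epithelia, was read at 48.7 and 45.2 CPM in KO recovery, 21.5 and 22.6 CPM in KO heat shock, 227 and 213 CPM in WT recovery and 126 and 109 CPM in WT heat shock. The groups did not overlap. KO was lower than WT by -2.23 ± 0.09 at recovery (4.69-fold, adjusted p = 2.2e-10) and by -2.41 ± 0.10 at heat shock (5.32-fold, adjusted p = 2.4e-10). It rose in both lines, by 1.09 ± 0.10 in KO cells (adjusted p = 1.0e-07) and by 0.91 ± 0.09 in WT cells (adjusted p = 3.1e-07). The difference of these rises was 0.18 ± 0.13 (adjusted p = 0.271), and with GC and length offsets it was -0.33 ± 0.11 (adjusted p = 0.0178), so its direction turned on that correction. In the authors' deposited table the log2 values of CLDN4 were 1.02 and 0.91 in the KO pairs and 0.99 and 1.10 in the WT pairs.

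CLDN3, a close relative of CLDN4, was the lowest of these claudins per kilobase of transcript. It had 3.21 and 3.46 CPM in KO recovery, 3.07 and 3.44 CPM in KO heat shock, 13.2 and 12.8 CPM in WT recovery and 9.37 and 8.36 CPM in WT heat shock, from 72 to 218 reads per library. The KO groups overlapped each other and lay below both WT groups. KO was lower by -1.96 ± 0.15 at recovery (adjusted p = 6.3e-08) and by -1.44 ± 0.15 at heat shock (adjusted p = 2.0e-06). CLDN3 rose by 0.56 ± 0.15 in WT cells (adjusted p = 0.00355, and 0.0655 in DESeq2), while KO cells gave 0.04 ± 0.18 (adjusted p = 0.894). Between the lines the responses differed by -0.52 ± 0.23, which did not pass (adjusted p = 0.0602) but did so without the replicate block (adjusted p = 0.0471) and with GC and length offsets (-0.93, adjusted p = 0.00208). The authors' deposited log2 values of CLDN3 were -0.098 and -0.072 in the KO pairs and 0.64 and 0.76 in the WT pairs.

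CLDN7, the claudin that binds EPCAM, had 96.7 and 97.3 CPM in KO recovery, 84.4 and 104 CPM in KO heat shock, 128 and 127 CPM in WT recovery and 113 and 110 CPM in WT heat shock. The KO groups overlapped, and both lay below both WT groups. It was lower in KO by -0.40 ± 0.09 at recovery (adjusted p = 0.00204). At heat shock it was lower by -0.24 ± 0.09 (adjusted p = 0.0383), a call lost without KO heat shock replicate 1 (-0.11, adjusted p = 0.444) or KO recovery replicate 2 (adjusted p = 0.0569), in DESeq2 (adjusted p = 0.0603), and with GC and length offsets, where the value was 0.15 (adjusted p = 0.128). The recovery values were 0.05 ± 0.10 in KO cells (adjusted p = 0.707) and 0.19 ± 0.10 in WT cells (adjusted p = 0.0996). Corrected for GC and length they passed as -0.29 in KO cells (adjusted p = 0.00563) and 0.45 in WT cells (adjusted p = 1.1e-04). The authors' deposited log2 values of CLDN7 were 0.03 and -0.17 in the KO pairs and 0.31 and 0.36 in the WT pairs. Their q-values, each from 1 library against 1, were under 0.05 in both WT pairs, unlike the call here without offsets. CLDN7 overlaps AC003688.1, a coding gene on the same strand counted at 310 to 885 reads per library, and ELP5 on the other strand, so its reads may be split between genes.

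Per kilobase of transcript, taking 4163 bases for CLDN4, CLDN7 was the main claudin of the 3 in every library and CLDN3 the least. CLDN7 took 81.5% and 82.3% of the summed CPM per kilobase of CLDN3, CLDN4 and CLDN7 in KO recovery, 87.9% and 89.2% in KO heat shock, 56.1% and 57.4% in WT recovery and 66.2% and 68.4% in WT heat shock. CLDN4 took 15.2% and 14.2% in KO recovery, 8.28% and 7.22% in KO heat shock, 36.8% and 35.6% in WT recovery and 27.2% and 25.3% in WT heat shock. The CLDN4 share was thus higher in WT than in KO and higher at recovery than at heat shock. With the 1698 bases from the RefSeq start, CLDN7 was the main one in the KO libraries, with 66.8% to 80.7%, and CLDN4 in WT recovery, with 58.9% and 57.6%. In WT heat shock the shares were then near each other, with CLDN4 at 47.8% and CLDN7 at 47.5% in replicate 1, and CLDN4 at 45.4% and CLDN7 at 50.0% in replicate 2.

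OCLN encodes occludin, a membrane protein of tight junction strands (ENSG00000197822, chromosome 5, 69492292 to 69558104, plus strand). Its level was 41.1 and 43.6 CPM in KO recovery, 52.1 and 55.9 CPM in KO heat shock, 67.6 and 71.1 CPM in WT recovery and 50.7 and 54.7 CPM in WT heat shock. The heat shock groups of the lines overlapped, and the recovery groups lay below them in KO and above them in WT. OCLN was lower in KO by -0.71 ± 0.09 at recovery (adjusted p = 5.9e-06), and at heat shock the log2 difference was 0.04 ± 0.08 (adjusted p = 0.741). It fell by 0.35 ± 0.09 in KO cells (adjusted p = 0.00441) and rose by 0.40 ± 0.09 in WT cells (adjusted p = 0.00145), and KO minus WT was -0.75 ± 0.13 (adjusted p = 7.6e-05). These recovery calls did not hold with GC and length offsets, which gave 0.02 in KO cells (adjusted p = 0.862), 0.15 in WT cells (adjusted p = 0.125) and -0.13 for the difference (adjusted p = 0.347). With offsets OCLN was lower in KO at both conditions, by -0.51 at recovery and -0.39 at heat shock (adjusted p = 2.2e-04). The log2 CPM ratios of the 2 KO pairs were -0.341 and -0.359. The fall in KO cells did not pass when 1 KO library was left out, which left 1 pair for it. The OCLN pseudogene OCLNP1 was counted at no more than 1 read in any library.

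TJP1 encodes ZO-1, the scaffold that links tight junction strands to actin (ENSG00000104067, chromosome 15, 29699367 to 29968865, minus strand). It had 264 and 250 CPM in KO recovery, 279 and 269 CPM in KO heat shock, 241 and 252 CPM in WT recovery and 273 and 257 CPM in WT heat shock. Each group overlapped its neighbour in level. The log2 differences of KO from WT were 0.06 ± 0.08 at recovery (adjusted p = 0.533) and 0.05 ± 0.08 at heat shock (adjusted p = 0.622). Recovery minus heat shock gave -0.09 ± 0.10 in KO cells (adjusted p = 0.479) and -0.10 ± 0.10 in WT cells (adjusted p = 0.405), and the difference of these was 0.01 ± 0.14 (adjusted p = 0.958). With GC and length offsets TJP1 was higher in KO at recovery (0.21, adjusted p = 0.0124). The authors' deposited log2 values of TJP1 were -0.24 and -0.18 in the KO pairs and -0.04 and 0.12 in the WT pairs. Their q-values, each from 1 library against 1, were under 0.05 in both KO pairs and in WT replicate 2, unlike the calls here.

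**Figure D2:**
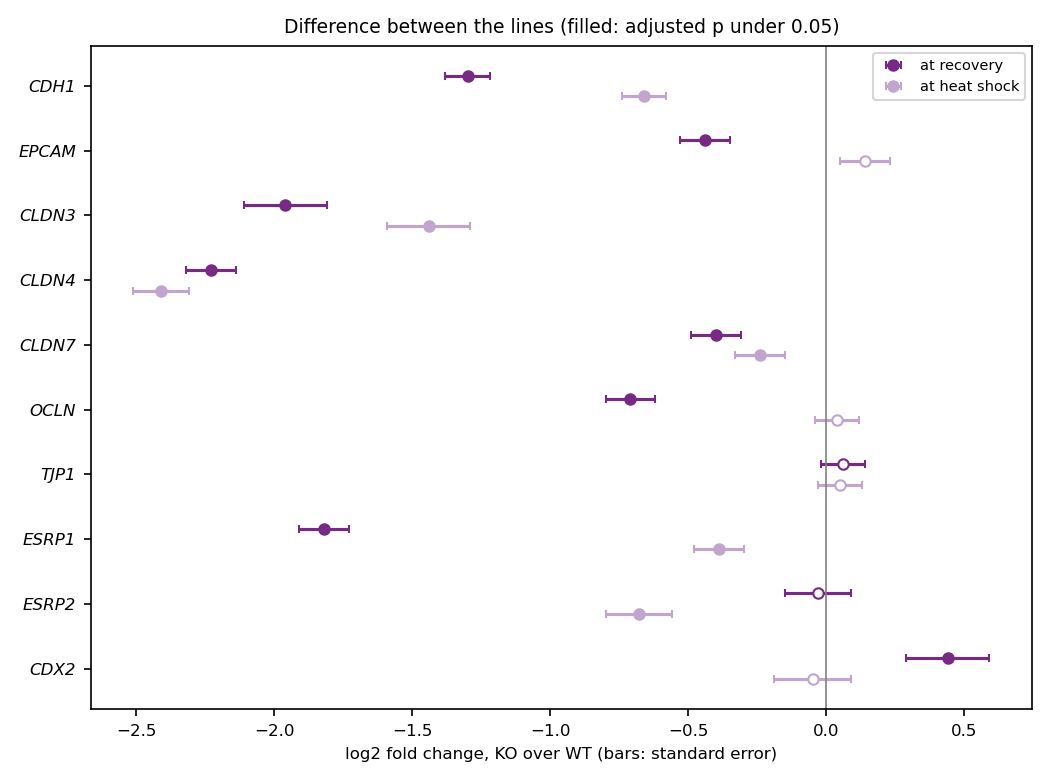
Log2 fold change of KO over WT for each gene, at recovery (upper marker of each pair) and at heat shock (lower marker). Bars are standard errors, and filled markers have an adjusted p under 0.05. CLDN4 lies near -2.23 and -2.41, CLDN3 and ESRP1 reach -1.96 and -1.82 at recovery, and TJP1 lies near 0 at both conditions.

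The ESRP genes encode paralogous splicing regulators, and at recovery ESRP1 moved in opposite directions in the lines. ESRP1 (ENSG00000104413, chromosome 8, 94641074 to 94707466, plus strand) had 87.1 and 96.7 CPM in KO recovery, 156 and 147 CPM in KO heat shock, 319 and 328 CPM in WT recovery and 188 and 209 CPM in WT heat shock. The groups did not overlap, and recovery was the lowest group in KO and the highest in WT. KO was lower by -1.82 ± 0.09 at recovery (3.52-fold, adjusted p = 9.7e-10) and by -0.39 ± 0.09 at heat shock (adjusted p = 0.00158, and -0.66 with GC and length offsets). ESRP1 fell by 0.72 ± 0.10 in KO cells (adjusted p = 1.3e-05) and rose by 0.71 ± 0.10 in WT cells (adjusted p = 9.4e-06). The responses differed by -1.43 ± 0.14 (adjusted p = 1.1e-07), the largest such difference among the 10 genes, and by -1.05 with GC and length offsets (adjusted p = 7.9e-07). Over the alternatives tried this difference ran between -1.55 and -1.05. In the authors' deposited table the log2 values of ESRP1 were -1.003 and -0.69 in the KO pairs and 0.90 and 0.79 in the WT pairs.

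ESRP2 (ENSG00000103067, chromosome 16, 68229111 to 68238102, minus strand) stood apart from its paralog. It was read at 24.1 and 24.7 CPM in KO recovery, 23.3 and 21.7 CPM in KO heat shock, 26.4 and 23.4 CPM in WT recovery and 41.0 and 31.2 CPM in WT heat shock. WT heat shock was highest, with the widest spread, and the recovery groups of the lines overlapped. KO was lower at heat shock by -0.68 ± 0.12 (adjusted p = 2.3e-04, and -0.33 with GC and length offsets, adjusted p = 0.00608), and at recovery the log2 difference was -0.03 ± 0.12 (adjusted p = 0.835). ESRP2 fell by 0.53 ± 0.11 in WT cells (adjusted p = 4.8e-04), KO cells gave 0.12 ± 0.10 (adjusted p = 0.398), and the responses differed by 0.64 ± 0.15 (adjusted p = 0.00126). After the offsets neither the fall in WT cells (-0.22, adjusted p = 0.0592) nor the difference (0.12, adjusted p = 0.458) passed. ESRP2 overlaps NFATC3 on the other strand and AC020978.5 on its own strand, the second counted at 353 to 1083 reads per library against 395 to 801 for ESRP2, so its value is uncertain where reads were split.

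Per kilobase of transcript, ESRP1 made up most of the ESRP transcripts in every library. Its share of the summed CPM per kilobase was 78.3% and 79.6% in KO recovery, 87.0% and 87.1% in KO heat shock, 92.3% and 93.3% in WT recovery and 82.1% and 87.0% in WT heat shock. The share was lowest in KO recovery and highest in WT recovery, and the heat shock groups met at 87.0%.

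CDX2, a homeobox factor of intestinal epithelium (ENSG00000165556, chromosome 13, 27962137 to 27971139, minus strand), was low, with 131 to 381 reads per library. Its level was 13.4 and 10.9 CPM in KO recovery, 12.6 and 10.8 CPM in KO heat shock, 10.1 and 7.77 CPM in WT recovery and 12.2 and 12.0 CPM in WT heat shock. WT recovery was the lowest group and the other 3 overlapped. CDX2 fell by 0.45 ± 0.14 in WT cells (adjusted p = 0.0126) and was higher in KO at recovery by 0.44 ± 0.15 (adjusted p = 0.0231). At heat shock the log2 difference between the lines was -0.05 ± 0.14 (adjusted p = 0.775), and recovery in KO cells gave 0.04 ± 0.12 (adjusted p = 0.81). The responses of the lines differed by 0.49 ± 0.19 (adjusted p = 0.033, and 0.0603 without the replicate block). None of the 3 calls held with GC and length offsets, which gave -0.16, 0.21 and -0.01. Upper-quartile scaling ended the calls on the difference between the lines (0.27, adjusted p = 0.134) and on the difference of the responses (0.38, adjusted p = 0.0889). The fall in WT cells was lost without either WT library of replicate 2 (-0.27 each) and in DESeq2 (adjusted p = 0.128), and the difference between the lines without KO recovery replicate 1 (0.29, adjusted p = 0.194) or replicate 2 of WT recovery (0.25, adjusted p = 0.271). The call on the responses was lost without any 1 of the 4 KO libraries or either WT library of replicate 2 (0.33 to 0.54, adjusted p of 0.0773 to 0.219), and in DESeq2 (adjusted p = 0.231).

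**Figure D3:**
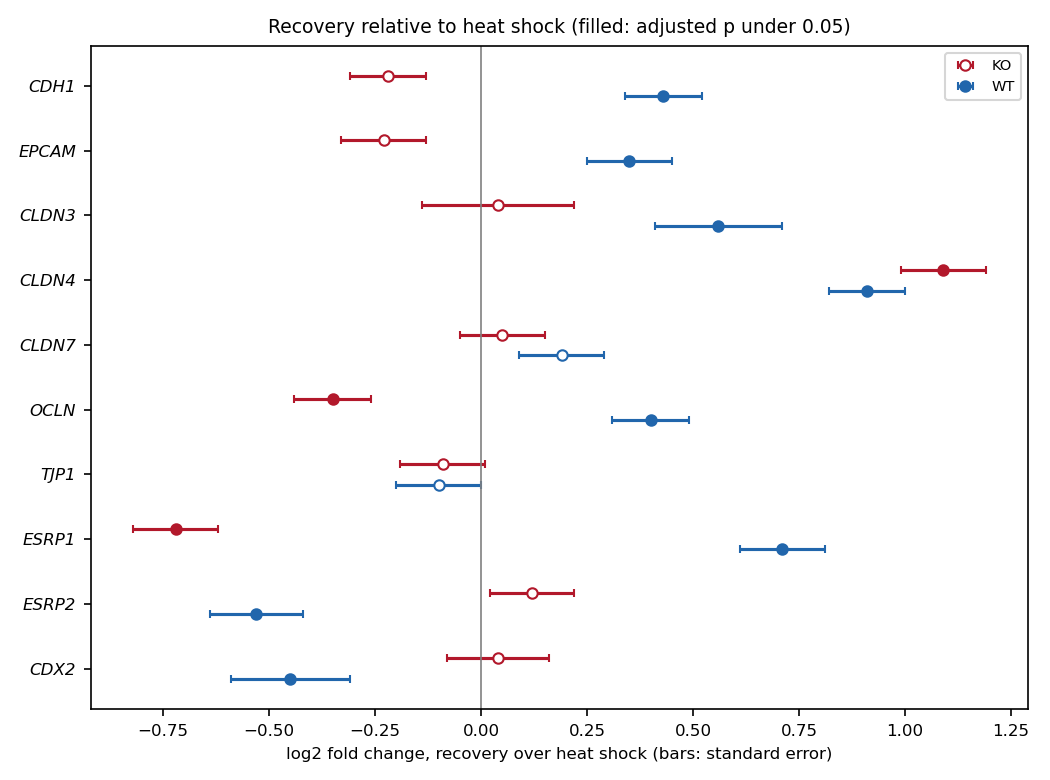
Log2 fold change of recovery over heat shock for each gene, in KO cells (upper marker of each pair) and WT cells (lower marker). Bars are standard errors, and filled markers have an adjusted p under 0.05. ESRP1 lies at -0.72 in KO cells and 0.71 in WT cells, and CLDN4 at 1.09 and 0.91.

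**Figure D4:**
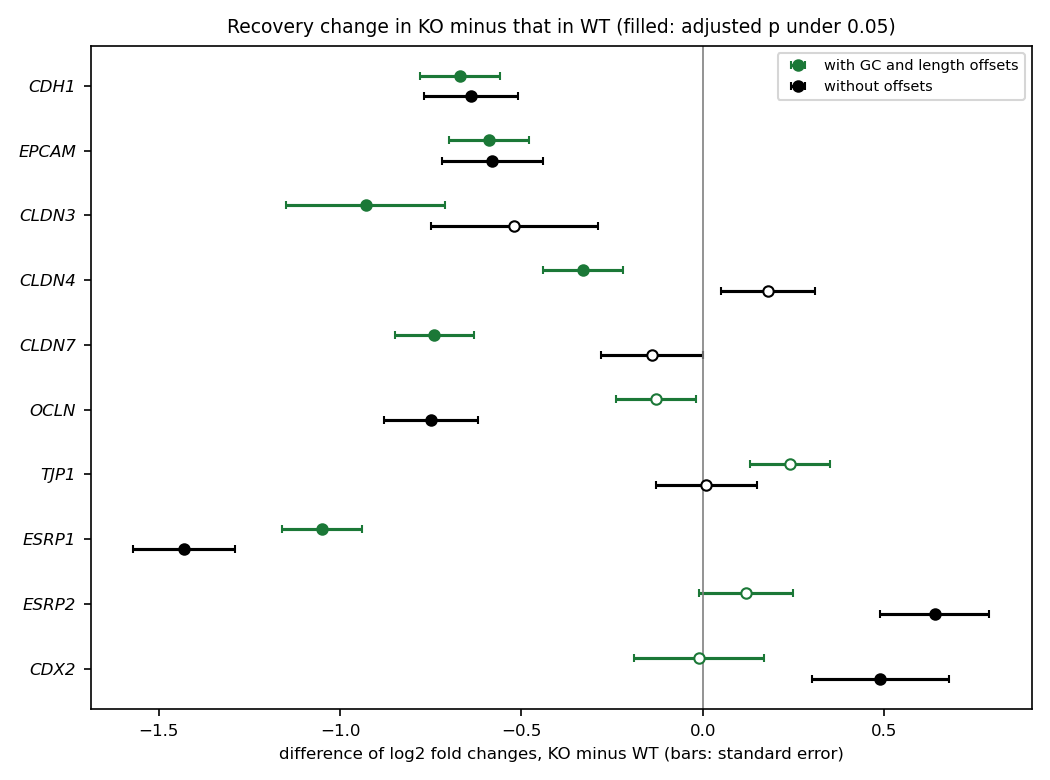
Difference of the recovery responses, KO minus WT, for each gene on the log2 scale, with GC and length offsets (upper, green) and without them (lower, black). Bars are standard errors, and filled markers have an adjusted p under 0.05. CDH1, EPCAM and ESRP1 keep a difference below 0 under both, while OCLN, ESRP2 and CDX2 pass without offsets only and CLDN3, CLDN4 and CLDN7 with offsets only.

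With the offsets, the number of the 10 genes that passed was 6 for the difference of the responses, as without them, but they were not the same genes. CDH1, EPCAM, CLDN3, CLDN4, CLDN7 and ESRP1 then had a difference below 0, and 0 of the 10 genes had one above 0 that passed. The values that passed in both fits were those of CDH1 (-0.64 without and -0.67 with offsets), EPCAM (-0.58 and -0.59) and ESRP1 (-1.43 and -1.05).

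Likeness of pattern was measured as the root mean square difference of centred log2 CPM over the 8 libraries, among 11530 protein-coding genes with a mean count of at least 50. The genes nearest to ESRP1 were ZNF641 (0.054), TRIM2 (0.076) and PPFIBP1 (0.077), and those nearest to CDH1 were TNIK (0.044), DHRS3 (0.053) and ANAPC16 (0.071). CLDN3 lay nearest to TMC4 (0.103), PPP1R13L and NDRG1, and CLDN4 to SAT1 (0.165), VGF (0.235) and C5orf62 (0.286), the widest distances among the 10. EPCAM was nearest to EPRS, UBR1 and WDR41 (0.034 to 0.041), CLDN7 to CES2, RAB11FIP5 and PGM1 (0.048 to 0.056), OCLN to TRIM4, CCNH and LGALS8 (0.044 to 0.051), TJP1 to PLRG1, RNF20 and ASB3 (0.034 to 0.044), ESRP2 to SCRIB, NUP210 and ZMYM3 (0.065 to 0.074) and CDX2 to XRCC1, KCNK13 and CCDC127 (0.094 to 0.104). Within the set, CLDN3 ranked 46 among the genes nearest to CLDN4, CDH1 ranked 101 for ESRP1 and 155 for CLDN3, and OCLN ranked 361 for EPCAM. These were among the nearest pairs of the set, and many others lay far apart. For EPCAM, CLDN7 ranked 1444 and CLDN4 ranked 11462. EPCAM ranked 2149 for CDH1, TJP1 ranked 3084 for OCLN, and ESRP2 ranked 4224 for ESRP1. The libraries share their scaling and the 4 group means, so these distances describe the 8 libraries only.

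The partners of these genes were read in lists of 6 to 21 tested genes. The lists too were chosen with earlier results of these data known, so their shares and medians are descriptive. Of 21 tight junction partners, 2 were higher and 11 lower in KO than in WT at recovery, and 5 were higher and 8 lower at heat shock, with list medians of -0.48 and -0.11; the shares among all genes are those given above. The 2 and 11 became 1 and 10 without KO recovery replicate 1, and 0 and 10 without WT recovery replicate 2. TJP3, which encodes ZO-3, was lower by -2.21 ± 0.12 at recovery (9.63 against 44.6 CPM, adjusted p = 1.5e-09) and -1.83 ± 0.11 at heat shock (9.45 against 33.8 CPM, adjusted p = 1.8e-08). CGN, encoding cingulin, a cytoplasmic plaque protein, was lower at recovery by -1.52 ± 0.12 (9.02 against 25.9 CPM, adjusted p = 7.6e-08). CXADR, a junctional receptor, was higher in KO at heat shock by 0.76 ± 0.09 (70.9 against 41.8 CPM), and by 0.34 with GC and length offsets (adjusted p = 7.6e-04). In recovery 1 of the 21 rose and 7 fell in KO cells, against 0 and 5 with GC and length offsets. Without replicate 1 of KO recovery or of KO heat shock 0 rose and 3 fell, and without replicate 2 of either 1 rose and 4 fell. In WT cells 9 rose and 2 fell, against 8 and 1 without replicate 2 of WT recovery or of WT heat shock. INADL and MPP5, scaffolds of the apical Crumbs complex, rose in WT cells by 0.58 ± 0.09 and 0.48 ± 0.10 (0.47 and 0.24 with offsets), and MPP5 fell by 0.51 ± 0.09 in KO cells, though not with offsets (-0.14, adjusted p = 0.184).

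Adherens junction partners were split between the directions. Of 15 tested, 6 were higher and 6 lower in KO than in WT at recovery, and 3 were higher and 7 lower at heat shock. PVRL3, encoding nectin-3, had 243 CPM in KO recovery against 32.9 CPM in WT recovery, a log2 difference of 2.88 ± 0.09 (adjusted p = 1.2e-11), and 257 CPM in KO heat shock against 31.3 CPM in WT heat shock, a log2 difference of 3.03 ± 0.09 (adjusted p = 9.5e-12). CTNND1, encoding p120-catenin, which binds E-cadherin, was lower by -0.79 ± 0.08 at recovery and -0.55 ± 0.08 at heat shock, and JUP, encoding plakoglobin, by -0.98 ± 0.12 and -1.44 ± 0.12. CTNNA1, encoding alpha-catenin, was lower by -0.26 ± 0.08 and -0.44 ± 0.08. CTNNB1, encoding beta-catenin, was higher in KO at recovery by 0.52 ± 0.09 (438 against 306 CPM, adjusted p = 1.9e-04). At heat shock its log2 difference was -0.18 ± 0.09 (383 against 433 CPM, adjusted p = 0.112), and -0.34 with GC and length offsets (adjusted p = 0.0027). In recovery 3 rose and 2 fell in KO cells and 2 rose and 4 fell in WT cells, among them CTNNB1, which fell by 0.50 ± 0.10. With GC and length offsets PVRL2 (-0.04), JUP (0.02) and VCL (-0.11) did not pass in KO cells. The 5 calls in KO cells (AJUBA, PVRL2, JUP, MLLT4 and VCL) were lost when any 1 of the 4 KO libraries was left out, which left 1 KO pair. More genes rose when any 1 WT library was left out. Over the fits without 1 library the log2 changes were 0.29 to 0.35 for AJUBA, 0.19 to 0.32 for PVRL2 and 0.18 to 0.35 for JUP. They were -0.35 to -0.22 for MLLT4 and -0.26 to -0.22 for VCL.

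Of 10 desmosome genes, 1 was higher and 6 lower in KO at recovery, and 3 were higher and 4 lower at heat shock. PPL, encoding periplakin, was lower by -1.84 ± 0.09 at recovery and -1.74 ± 0.09 at heat shock, and the desmocollin genes DSC2 and DSC3 were higher in KO at heat shock by 0.85 ± 0.08 and 1.22 ± 0.14 (0.45 and 0.80 with GC and length offsets). In recovery 0 rose and 3 fell in KO cells, namely DSC2, DSC3 and DSG2, against 0 and 0 with offsets. Without replicate 1 of KO recovery or of KO heat shock DSC2 alone fell, and without any 1 WT library 2 rose and 4 to 5 fell. In WT cells 6 rose and 1 fell. These became 3 and 1 without WT heat shock replicate 2, 7 and 0 without replicate 1 of WT recovery or of WT heat shock, and 5 and 0 without any 1 KO library. PERP, a desmosomal membrane protein and p53 target, rose by 0.62 ± 0.09 with the smallest p of the list, and DSC3 by 0.80 ± 0.14. Of 6 keratins, 2 were higher and 1 lower in KO at recovery (0 lower without KO recovery replicate 2), and 1 was higher and 4 lower at heat shock. In recovery 3 rose and 0 fell in KO cells, against 1 and 0 with offsets and 0 or 1 and 0 without any 1 KO library (0 without KO heat shock replicate 1). In WT cells 0 rose and 4 fell, against 0 and 0 with offsets and 0 and 2 without replicate 2 of WT recovery or of WT heat shock.

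Regulators of the epithelial state and surface proteases were lower in KO at heat shock in 16 of 20 cases, with 0 higher and a list median of -0.79, and 11 were lower and 2 higher at recovery. Corrected for GC and length, 17 and 14 were lower and 0 and 3 higher. EHF, an epithelial ETS factor, had 13.2 CPM in KO recovery against 93.6 CPM in WT recovery (-2.82 ± 0.10, adjusted p = 9.8e-11) and 19.6 CPM in KO heat shock against 66.7 CPM in WT heat shock (-1.77 ± 0.10). ELF3, another epithelial ETS factor, had 16.4 CPM in KO recovery against 125 CPM in WT recovery (-2.93 ± 0.11, adjusted p = 1.3e-10), and in WT cells it rose by 2.12 ± 0.11, with 125 CPM at recovery and 28.8 CPM at heat shock. GRHL2, a grainyhead factor that in other epithelial cells binds CDH1 and claudin genes, was lower in KO at heat shock by -1.49 ± 0.10 (14.1 against 39.7 CPM), and MAL2, a protein of apical transport, at recovery by -1.68 ± 0.11. KLF5 was higher in KO at recovery by 0.93 ± 0.10. In recovery 10 rose and 4 fell in KO cells, against 7 and 5 with offsets, 2 and 2 without KO heat shock replicate 1 and 5 and 2 without KO recovery replicate 1. In WT cells 8 rose and 6 fell, against 8 and 4 with offsets. MAL2 fell by 0.76 ± 0.10 in KO cells and rose by 0.66 ± 0.10 in WT cells (-0.48 and 0.40 with offsets). The difference of the responses passed above 0 for 7 of the 20 and below 0 for 7. Above 0 were, among others, OVOL1 by 1.51 ± 0.18, OVOL2 by 1.22 ± 0.16 and RAB25 by 1.01 ± 0.13 (0.93, 0.68 and 0.56 with offsets). Below 0 were, among others, ELF3 by -1.56 ± 0.16 and MAL2 by -1.42 ± 0.14.

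Among 9 tested genes of EMT factors and mesenchymal markers, 3 were higher and 2 lower in KO at each condition, with list medians of 0.07 at recovery and -0.11 at heat shock (-0.10 and 0.05 with GC and length offsets). Without WT heat shock replicate 2, 3 were higher and 4 lower at heat shock. SNAI1, a repressor of CDH1, was higher in KO by 0.73 ± 0.12 at recovery (17.5 against 10.6 CPM, adjusted p = 8.3e-05) and 0.84 ± 0.11 at heat shock (22.2 against 12.4 CPM, adjusted p = 1.6e-05). ZEB1, a repressor that also acts on CDH1 and ESRP1, was higher by 0.78 ± 0.21 at recovery (7.35 against 4.29 CPM, adjusted p = 0.00441) and 0.95 ± 0.19 at heat shock (8.71 against 4.48 CPM, adjusted p = 8.1e-04; 0.49 with offsets, adjusted p = 0.0377). Without KO recovery replicate 2 or WT recovery replicate 1 the recovery call was lost (adjusted p of up to 0.0629). TWIST1 was higher in KO at heat shock by 1.95 ± 0.21 (4.77 against 1.23 CPM), while at recovery the log2 difference was 0.15 ± 0.20 (3.29 against 2.94 CPM, adjusted p = 0.521). The genes lower in KO were SPARC and SNAI3 at recovery and SPARC and VIM at heat shock, all of them low in level. SPARC, a secreted matrix protein, was lower by -2.02 ± 0.35 at recovery (0.525 against 2.1 CPM, adjusted p = 1.7e-04) and -1.42 ± 0.35 at heat shock (0.513 against 1.36 CPM, adjusted p = 0.00335). SNAI3, of the same family as SNAI1, was lower at recovery by -2.38 ± 0.33 (0.664 against 3.55 CPM, adjusted p = 2.1e-05). VIM, the mesenchymal intermediate filament, had 1.87 and 1.1 CPM in KO recovery, 1.24 and 1.56 CPM in KO heat shock, 1.82 and 2.02 CPM in WT recovery and 3.63 and 3.13 CPM in WT heat shock. WT heat shock was its highest group, and VIM was lower in KO there by -1.25 ± 0.25 (adjusted p = 7.2e-04), while at recovery the log2 difference was -0.39 ± 0.30 (adjusted p = 0.269). CDH2, encoding N-cadherin, stayed under 0.5 CPM in the 8 libraries.

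Genes whose transcripts ESRP proteins are known to splice were tested for their level only, since counts per gene do not show splice forms. Of 16, 3 were higher and 7 lower in KO at recovery (1 and 6 without WT recovery replicate 1), and 6 were higher and 7 lower at heat shock (3 and 8 with offsets). CD44, a hyaluronan receptor with ESRP-regulated variable exons, was lower at recovery by -0.68 ± 0.08 (701 against 1124 CPM), and RALGPS2 by -1.33 ± 0.09. RALGPS2 fell by 0.92 ± 0.10 in KO cells and rose by 0.82 ± 0.10 in WT cells, and the responses differed by -1.74 ± 0.14 (adjusted p = 2.0e-08). The same values with offsets were -0.49, 0.47 and -0.97. ARHGEF11 went the other way, with 1.28 ± 0.10 in KO over WT at recovery and -0.77 ± 0.10 for recovery in WT cells. Its responses differed by 1.01 ± 0.14 (0.71 with offsets). Over the 16 the difference of the responses passed above 0 for 4 and below 0 for 4. In recovery 2 of the 16 rose and 5 fell in KO cells, against 3 and 3 with offsets. Without any 1 of the 4 KO libraries 0 to 1 rose and 2 fell, and without any 1 WT library 4 rose and 5 fell. In WT cells 4 rose and 4 fell.

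Of 31 intestinal identity genes listed around CDX2, 15 had enough reads to be tested. Of these, 6 were higher and 2 lower in KO at recovery, and 8 were higher and 2 lower at heat shock (11 and 2 with GC and length offsets), with list medians of 0.10 and 0.72. Left-out libraries changed the 2 lower ones to 1, namely replicate 1 of KO heat shock or of WT heat shock at heat shock, and any 1 KO library or WT recovery replicate 1 at recovery. HNF4A, a nuclear receptor of gut and liver epithelium, had 4.46 CPM in KO recovery against 0.84 CPM in WT recovery (2.40 ± 0.28, adjusted p = 4.0e-06) and 4.43 CPM in KO heat shock against 0.589 CPM in WT heat shock (2.90 ± 0.28). In recovery 4 rose and 5 fell in KO cells, against 2 and 5 with offsets and 2 to 3 and 1 to 2 without any 1 of the 4 KO libraries. In WT cells 1 rose and 1 fell, against 3 and 1 with offsets and 2 and 1 without replicate 2 of WT recovery or of WT heat shock.

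**Figure D5:**
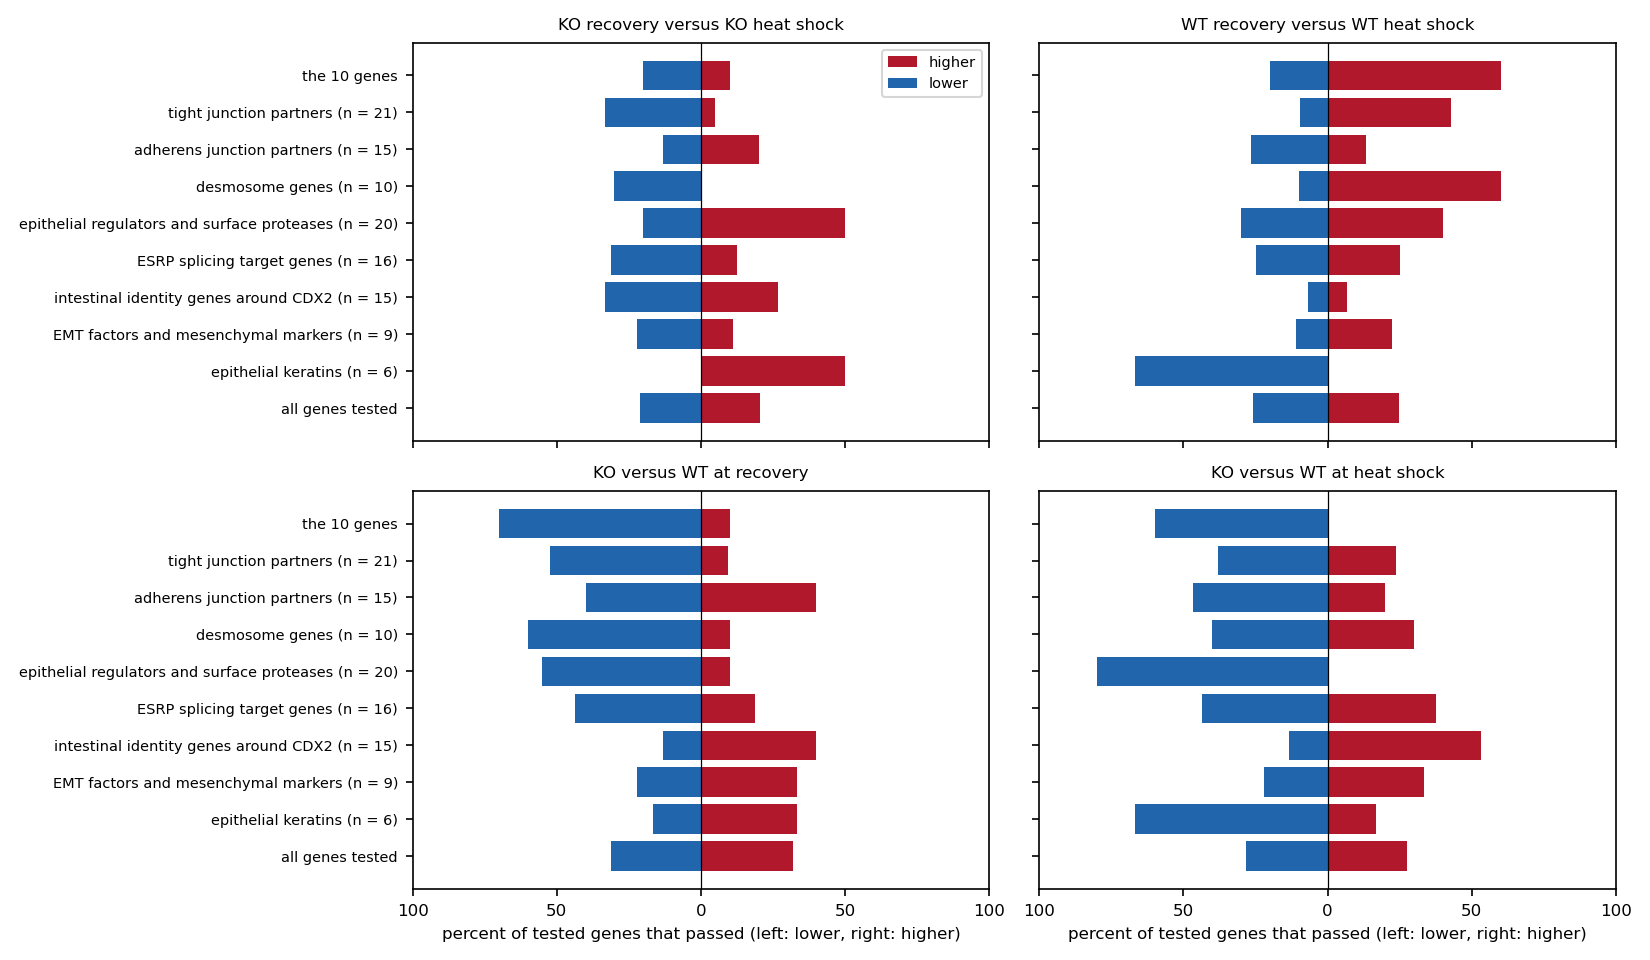
Percent of tested genes that passed in each comparison, higher to the right and lower to the left, for the 10 genes, 8 gene lists and all genes tested. Upper panels show recovery over heat shock in KO and WT cells, and lower panels KO over WT at recovery and at heat shock. At recovery 7 of the 10 genes are lower in KO and 1 is higher, and at heat shock 16 of 20 epithelial regulators and surface proteases are lower. The 10 genes and the lists were chosen with earlier results of these data known.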

How the data were processed

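The 8 libraries are poly-A selected or ribosome-depleted RNA of HCT116 cells, sequenced as 50-base single reads by a strand-specific method, per the labels' protocols. Per the submitters' processing notes, CASAVA and TopHat were used with hg19. Versions, the counting program and whether it used the strand were not given in the sources used here. Per the file headers, the deposited tables hold the authors' read counts per gene for each recovery and heat shock pair, with missing counts taken as 0. The authors' deposited log2 fold changes and q-values or p-values, in the DEGseq layout, were used for description only. Genes were matched to GENCODE 29 by identifier (48932 of 55075).

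Counts were tested in R 4.3.3 with edgeR 4.0.16 (filterByExpr, TMM, quasi-likelihood F test, Benjamini-Hochberg adjustment over 17471 genes). Recovery comparisons and their difference had a block for each replicate of each line, since the study's design text speaks of matched recovery and heat shock pairs, which left 2 residual degrees of freedom. Comparisons between lines had no block and 4. Libraries of one number deviated from the group means with a correlation of -0.0259 in KO and -0.0144 in WT. Alternatives were RLE and upper-quartile scaling, no filter, DESeq2 1.42.0, the block left out or added, GC and length offsets (natural splines of log2 CPM per library on both, with values for 95.4% of tested genes) and leaving out each library. Standard errors are the log2 value divided by the root of F. The procedure was also run on simulated counts with few changed genes, no pair effects and no GC or length bias. That setting differs from these data, so the run does not bear on the calls given here. Replicates correlated at r of 0.994 to 0.997 in log2 CPM and differed beyond sampling noise, most of all in WT heat shock. The chi-square per degree of freedom between replicates was 20.6 in WT heat shock, 8.9 in KO recovery, 5.28 in KO heat shock and 2.57 in WT recovery.

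The 10 genes and the gene lists were chosen with earlier results of these data known. From each list and comparison, up to 3 genes per direction could be named, in order of p, if they passed, averaged 50 or more reads and changed alike in both pairs or without overlap. VIM, CDH2, SPARC, SNAI3, CTNNA1, CTNNB1 between the lines and the 5 adherens genes of KO recovery were named after their values were seen. Of blood cell markers 1, CD68, was tested, and it was lower in KO at heat shock (-0.67) and fell in WT recovery (-0.56).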

Additional observations from a re-analysis of the deposited data

Results flagged for a closer look

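For 6 of the 10 genes the change at recovery differed between the lines by the test of the difference itself (edgeR, KO response minus WT response, log2): ESRP1 by -1.43, OCLN by -0.75, CDH1 by -0.64, EPCAM by -0.58, ESRP2 by 0.64 and CDX2 by 0.49. Such a difference passed for 56.3% of all genes. With GC and length offsets the differences of ESRP1, CDH1 and EPCAM passed, and those of OCLN (-0.13), ESRP2 (0.12) and CDX2 (-0.01) did not.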

How the results depend on the processing

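For the 10 genes under the alternatives, direction and side of the threshold held in 116 values of KO recovery, with 24 that did not, in 129 of WT recovery with 11, in 115 of the difference of the responses with 25, in 132 of KO over WT at recovery with 8 and in 124 at heat shock with 16. For KO recovery, DESeq2 called 4801 of all genes, and 5 of the 10 genes passed without the replicate block and with GC and length offsets. Leaving out 1 library gave 2838 to 8244 genes in all and 2 to 5 of the 10. The replicate block changed no other count by over 1.5 times; with it 11013 genes passed between the lines at recovery, and 9656 at heat shock. Deviations did not correlate within pairs. With GC and length offsets the direction turned in KO recovery for CLDN3 (-0.31), CLDN7 (-0.29), OCLN (0.02), TJP1 (0.06), ESRP2 (-0.10) and CDX2 (-0.18), in the difference of the responses for CLDN4 (-0.33) and CDX2 (-0.01), and in KO over WT at heat shock for CLDN7 (0.15), OCLN (-0.39), TJP1 (-0.04) and CDX2 (0.23). Upper-quartile scaling turned TJP1 in the difference of the responses (-0.10), at heat shock (-0.01) and at recovery (-0.11), and OCLN at heat shock (-0.02). TJP1 was also turned in the difference by RLE factors (-0.01) and DESeq2 (-0.01), and ESRP2 at recovery by leaving out the filter (0.06). Among fits without 1 library, signs turned for CLDN7 in KO recovery (-0.09 to 0.20) and in the difference (-0.29 to 0.01), TJP1 in the difference (-0.03 to 0.10), EPCAM (-0.01 to 0.24), OCLN (-0.06 to 0.08), TJP1 (-0.01 to 0.08) and CDX2 (-0.16 to 0.06) at heat shock, and ESRP2 at recovery (-0.13 to 0.05). Upper-quartile scaling moved the median of all genes to -0.14 in the difference of the responses. The cause was not tested. Depth limits CLDN3 and CDX2 most, with as few as 72 and 131 reads in a library. A group left with 1 library is assumed to vary like the others.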

Other observations

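Within 250 kb of CLDN4, 10 other coding genes were tested, and 0 were higher and 7 lower in KO at heat shock, against 4 higher and 6 lower at recovery, with CLDN3 the lowest (-1.44 and -1.96). Within 250 kb of ESRP1, 8 were tested, and 0 were higher and 6 lower at recovery, against 2 higher and 1 lower at heat shock. Near CDH1 (3 genes) 0 were higher and 3 lower at heat shock, then 0 and 2 at recovery. Near CLDN3 (11) these were 1 and 7, then 5 and 6. Near EPCAM (2): 2 and 0, then 1 and 0. Near CLDN7 (33): 6 and 13, then 13 and 11. Near OCLN (6): 5 and 0, then 2 and 3. Near ESRP2 (8): 1 and 1, then 4 and 0. Near CDX2 (4): 2 and 0, then 1 and 2. Among all genes 27.4% were higher and 28.2% lower at heat shock, then 31.8% and 31.3%. The distance was chosen after values were seen.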
